A study of Apis mellifera with 48 samples.

Results

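The 156 genes described here had a higher median level in the mushroom bodies of worker honey bees (Apis mellifera) than in those of drones. They were chosen on their values: a gene was a member when its median over 24 workers was at least 2 CPM (a count scaled to a library of 1000000 reads given to genes) and at least 2 times its median over 24 drones. They make up 1.02% of the 15314 gene identifiers listed and 1.67% of the 9334 genes whose worker median reached 2 CPM. The difference between the sexes is therefore a description of the selection, and it carries no test. The files give each gene by an identifier alone, and 0 of the 15314 identifiers matched the name table at hand, so no member has a name, a role, a position or a sequence here.

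Polyadenylated RNA was sequenced from 48 bees, 1 directional library per bee, from mushroom bodies dissected out of frozen brains. Each of 4 groups held 12 bees: active workers caught at 3 pm as they got ready to forage, inactive workers caught at 9 am, active drones caught at 3 pm ahead of flight, and inactive drones caught at 9 am. Activity and clock time divided the bees in the same way and cannot be told apart. All bees came from 3 colonies whose naturally mated queens were unrelated, and no age is given for any bee. The workers came 10, 10 and 4 from colonies 1, 2 and 3, and the drones 7, 3 and 14, so the sexes differed in colony make-up.

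The mushroom bodies are paired centres of the insect brain in which smell, sight and memory come together, and in bees they are large and are studied for their part in foraging and orientation. Workers are females that develop from fertilised eggs and carry an allele from each parent. Drones are males that develop from unfertilised eggs and carry only alleles of their mother. A queen mates with many drones, so the workers of a colony have different fathers, and the members' values are given below bee by bee as well as by group. The labelled tissue could not be checked against marker genes, because none of the markers could be found without gene names. In a piece of tissue, fewer cells of a type and less RNA per cell cannot be told apart.

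The libraries of workers held 6849730 to 27100606 reads given to genes (median 15105730), and those of drones 6694529 to 22396392 (median 11983448). A single read was worth 0.0662 CPM in the median worker library and 0.0835 CPM in the median drone library. The members together took 0.563 to 2.31% of these reads in workers (median 0.688%) and 0.233 to 0.355% in drones (median 0.298%). The ranges of the sexes did not overlap, but the members were chosen for a higher level in workers, so nothing is read from this. The highest share, 2.31%, was that of inactive worker 5, and the next, 1.40%, that of active worker 5. Gene lengths were not used, so levels are compared for 1 gene between bees and not between genes.

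Most members were of low or middle abundance, and the ratio of worker to drone median was modest for most of them. The worker median lay between 2 and 10 CPM for 75 members, between 10 and 100 CPM for 69, and above that for 12. The median member had 10.3 CPM in workers and 3.00 CPM in drones. The ratio was 2 to 3 for 98 members, 3 to 5 for 26, 5 to 10 for 17 and 10 or more for 15, with a median of 2.54. In drones, 28 members had a median below 1 CPM, and for 15 it was under 10 reads. The members nearest the limits show how close the choice was. GB43646, GB41310 and GB48934 were just inside with ratios of 2.00, 2.00 and 2.02, GB48131 was just inside on level with a worker median of 2.13 CPM, and GB51299 was just outside with 1.99 CPM.

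**Figure D1:**
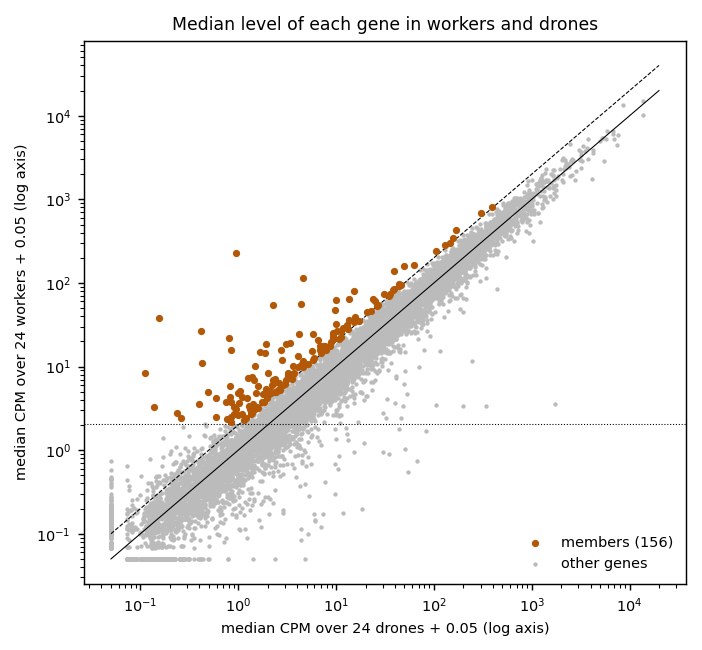
Each point is a gene, placed by its median CPM over 24 workers (vertical, log axis) and over 24 drones (horizontal, log axis), with 0.05 CPM added. The 156 members (orange) lie above the dashed line of a 2-fold ratio and above the dotted line of the level limit, and most lie close to the dashed line, with a median ratio of 2.54; the solid line marks equal medians.

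In 21 members every worker was above every drone. Over all 14240 genes with a read, 0.232% had this separation, and because the members were chosen on the same contrast nothing is read from the comparison. GB43248 was the widest apart of the 21. Its level was 66.8 CPM in the lowest worker, 226 in the median and 523 in the highest, against 0.197, 0.901 and 3.09 CPM in drones. The lowest worker was thus far above the highest drone, and both sexes spread widely within themselves. GB53372 had 6.41, 26.7 and 171 CPM as its lowest, median and highest worker, against 0.0601, 0.371 and 1.51 CPM in drones.

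GB41260 was the most even member among workers, with 35.3, 53.8 and 60.5 CPM in the lowest, median and highest worker, against 0.433, 2.21 and 6.41 CPM in drones. All but the lowest worker lay in a narrow band, while the drones ranged more than 10-fold. GB41262, whose identifier is 2 numbers on, was similar in workers (42.2, 62.9 and 90.7 CPM) and clearly measured in drones as well (6.28, 10.03 and 18.04 CPM). The sexes were apart in both genes.

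Of the 10 members with the highest worker median, 8 had a ratio below 3. GB54987 had the highest level, with 681, 811 and 994 CPM in the lowest, median and highest worker and 246, 395 and 570 CPM in drones, and the sexes did not overlap. GB43504 followed with 204, 678 and 1035 CPM in workers and 126, 306 and 547 CPM in drones, and here 17 of 24 workers were above the highest drone. GB51953 had 251, 426 and 536 CPM in workers and 111, 170 and 240 CPM in drones, again without overlap. The ratios of GB52047, GB52048, GB50342, GB44836 and GB55930 were 2.23, 2.07, 2.19, 2.27 and 2.64. The 2 others of the 10 had larger ratios, 251 in GB43248 and 3.23 in GB53471.

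**Figure D2:**
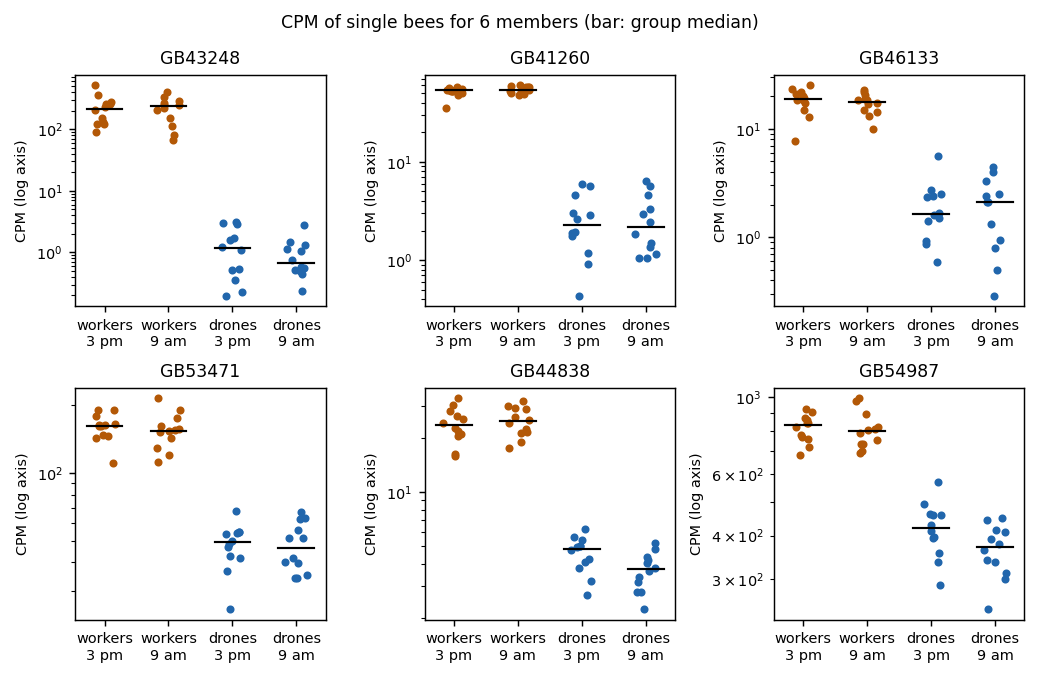
CPM of single bees (log axes) for 6 members, with workers at 3 pm and 9 am left of drones at 3 pm and 9 am (n = 12 per group), and a bar at each group median. Every worker is above every drone in each panel, from 251-fold between the medians in GB43248 to 2.052-fold in GB54987.

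The other members overlapped between the sexes. In 72 of the 156 at least 1 drone was above the worker median, and over the members a median of 13 of 24 workers were above the highest drone. A worker was at 0 reads in 6 members and a drone in 24. A count of 0 allowed up to 0.111 to 0.448 CPM, depending on the library (3 reads, counting error only).

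The ratio reached 2 at 3 pm in 129 members, at 9 am in 126 and at both times in 101. By colony it reached 2 in 120 members within colony 1, 118 within colony 2 and 97 within colony 3, and in all 3 colonies in 60. Because 14 of 24 drones but 4 of 24 workers were of colony 3, colony make-up enters the ratio over all bees. In 22 members the drone median equalled or exceeded the worker median within at least 1 colony. With colony in the model, the worker minus drone difference had a median of 1.16 on the log2 scale over the members (range -1.03 to 7.96), was below 1 in 48 and was negative in 5.

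GB54410 was the clearest of the 5. Its worker and drone medians by colony were 18.5 and 62.2 CPM in colony 1, 20.95 and 57.5 CPM in colony 2, and 5.08 and 6.20 CPM in colony 3. Drones thus had the higher median in every colony, although the median over all workers (17.8 CPM) was 2.06 times that over all drones (8.63 CPM). Its difference with colony in the model was -1.03 ± 0.27 (log2, SE, n = 48). The other 4 were GB46276 (-0.41 ± 0.51), GB42980 (-0.32 ± 0.48), GB42668 (-0.09 ± 0.35) and GB42160 (-0.07 ± 0.70), all smaller than their SE. In 4 members no single colony reached a ratio of 2, GB54410 and GB42668 among them with GB51830 and GB54787, the last 2 named after their values were seen.

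Many members varied widely among bees of 1 group. The SD of log2 CPM among workers of a group had a median of 0.57 over the members, against 0.31 over the 9178 other genes whose worker median reached 2 CPM. Among drones of a group it was 0.77, against 0.32. An SD of at least 1, which is a 2-fold change per SD, was seen in 32 members (20.5%) in workers and 50 (32.1%) in drones, against 1.91 and 2.93% of the other genes. The members were chosen on medians of the same bees, and such a choice can favour genes that vary widely. Nothing is therefore read from the comparison with other genes. Each group held bees of 3 colonies, and colony was not taken out of the SD. The members have few reads in drones by selection, and the part of read number in the spread was not tested.

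In some members the bees fell into separate levels with no bee between. A gap was counted when neighbouring bees in the sorted order differed at least 5-fold in CPM + 0.5, with at least 3 bees on each side, a definition chosen after the values were seen. Gaps were found in 3 members (1.92%) among workers and 6 (3.85%) among drones, which are 7 members in all, against 3 (0.0327%) and 14 (0.153%) of the 9178 other genes. The members were chosen on medians of the same bees. A gene with separate levels passes when the worker median falls on the high level, or within the gap, and the drone median on the low level. Nothing is therefore read from the comparison with other genes. GB52581 was at 35.6 to 93.5 CPM in 15 of 24 workers and at 0.631 CPM or less in the other 9. In drones 5 of 24 were at 49.5 to 84.9 CPM and 19 at 0.332 CPM or less. The high level was of the same order in both sexes, and the sexes differed in how many bees had it. By colony, the bees at the high level were 5 of 10, 6 of 10 and 4 of 4 workers and 2 of 7, 0 of 3 and 3 of 14 drones in colonies 1, 2 and 3.

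GB41278 showed the same form. It was at 16.4 to 48.9 CPM in 12 of 24 workers and at 0.363 CPM or less in the rest, against 33.9 to 65.3 CPM in 4 drones and 0.357 CPM or less in the other 20. The workers at the high level were 6 of 10 in colony 1, 6 of 10 in colony 2 and 0 of 4 in colony 3, and the drones 1 of 7, 3 of 3 and 0 of 14. All 18 bees of colony 3 were thus at the low level. By time, the workers at the high level were 8 of 12 active and 4 of 12 inactive bees, with group medians of 19.8 and 0.223 CPM. As many workers were high as low, so the median over all workers, 8.38 CPM, fell in the gap where no bee lay. The part of colony make-up in the difference between the sexes was not tested.

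GB46994 had a gap in drones alone. It had 1.02 to 7.42 CPM in 19 workers and 0 reads in 5, and 2.99 to 11.7 CPM in 11 drones and 0.0897 CPM or less in 13. In workers the step from 0 reads to 1.02 CPM did not count as a gap. The drones at 2.99 CPM or more were 7 of 7, 2 of 3 and 2 of 14 by colony. The workers with a read were 6 of 10, 10 of 10 and 3 of 4. Within colony 1 the drone median of 5.84 CPM was above the worker median of 4.16 CPM, while within colony 3 the drone median was 0 and the worker median 4.22 CPM. Over all colonies the drone median was 0.0878 CPM. GB54260 differed in that no drone reached the high level: 13 of 24 workers had 15.3 to 24.2 CPM and the rest 1.01 CPM or less, while the drones had 0.216 to 3.53 CPM. Its 13 high workers were 4 of 10, 9 of 10 and 0 of 4 by colony. For GB52581, GB41278 and GB46994 the drone median was about 1 read, so no ratio is given for them.

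**Figure D3:**
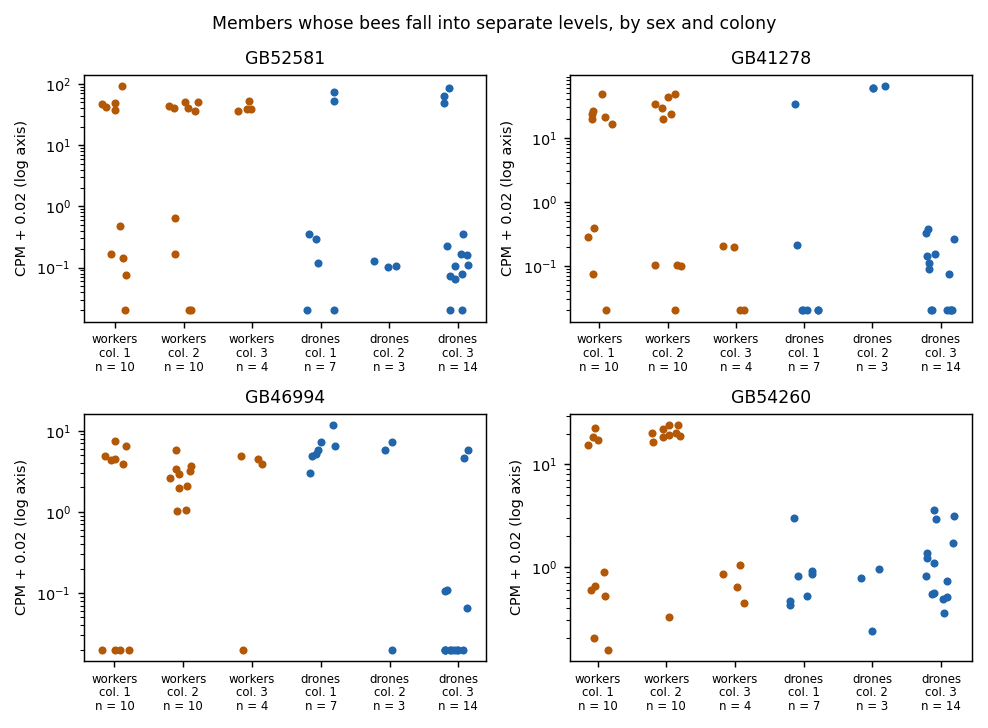
CPM + 0.02 of single bees (log axes) for 4 members, by sex and colony, workers left of drones, with the number of bees under each column. Bees sit at a high or a low level with a gap between in GB52581 and GB41278, among drones in GB46994 and among workers in GB54260. No bee of colony 3 is at the high level of GB41278 or GB54260.

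In the remaining 3 members, as in GB46994, drones alone showed the gap. GB50715 was at 6.74 to 28.1 CPM in all 24 workers, while 18 drones were at 3.82 to 18.6 CPM and 6 at 0.224 CPM or less. GB42160 was at 1.06 to 6.56 CPM in workers, while 11 drones were at 4.81 to 15.3 CPM, reaching above the highest worker, and 13 at 0.421 CPM or less. GB46276 was at 11.1 to 261 CPM in workers, while 8 drones were at 318 to 786 CPM, all above the highest worker, and 16 at 16.4 to 51.0 CPM. In the last pair some drones were thus the highest bees of all, in genes chosen for a higher worker median.

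Members often had neighbouring identifiers. Of the 156 members, 41 (26.3%) fell into 19 runs of consecutive numbers, 18 of them pairs. Among the 281 identifiers 1 number from a member, 41 (14.6%) were members, against 1.02% of all identifiers. With only neighbours whose worker median reached 2 CPM counted, it was 23.7% of 173. Whether consecutive numbers are neighbours in the genome is not given in the sources used here, and reads of overlapping or near-identical genes are uncertain because the counting mode is not given there.

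The longest run held 5 members, GB44836 to GB44840. Their worker and drone medians were 240 and 106 CPM for GB44836, 24.4 and 5.70 for GB44837, 24.4 and 4.14 for GB44838, 73.7 and 35.7 for GB44839, and 15.8 and 6.87 for GB44840. Every worker was above every drone in 4 of the 5, and in GB44839 20 of 24 workers were above the highest drone. Close by, GB44834 (47.8 CPM in workers, 9.67 in drones) and GB44831 (53.1 and 26.1 CPM) were members too and also had every worker above every drone. GB44835, between GB44834 and GB44836, went the same way below the limit, with a ratio of 1.58. GB44841, the next identifier after the run, had a ratio of 0.87.

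GB53471 and GB53472 had worker medians of 159 and 63.8 CPM and drone medians of 49.1 and 13.4 CPM, with every worker above every drone in both. GB53460 had 65.9, 79.9 and 124 CPM in the lowest, median and highest worker against 12.0, 15.3 and 21.3 CPM in drones, a ratio of 5.22. GB53461, the next identifier, was closer to the limit with medians of 92.3 and 43.6 CPM. GB52047 and GB52048 made the pair with the highest levels, with worker medians of 348 and 301 CPM and drone medians of 156 and 145 CPM.

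GB46133 and GB46134 had 7.74, 18.4 and 25.3 CPM and 8.01, 14.7 and 20.9 CPM as their lowest, median and highest worker. In drones they had 0.288, 1.88 and 5.63 CPM and 0, 1.60 and 4.98 CPM. GB46139, 5 numbers on, had medians of 14.5 and 1.83 CPM. GB46136, between them, went the same way at a level below the limit, with medians of 0.414 CPM in workers and 0 in drones. Over the 22 pairs of neighbours in runs, Pearson's r of log2 CPM over 24 workers had a median of 0.70 (range -0.39 to 0.96), against 0.23 over 6333 other consecutive pairs of genes. Both genes of a pair were counted in the same libraries, and no test was made of this. The pairs were not matched for spread among workers, which was wider in the members, and its part in r was not tested.

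**Figure D4:**
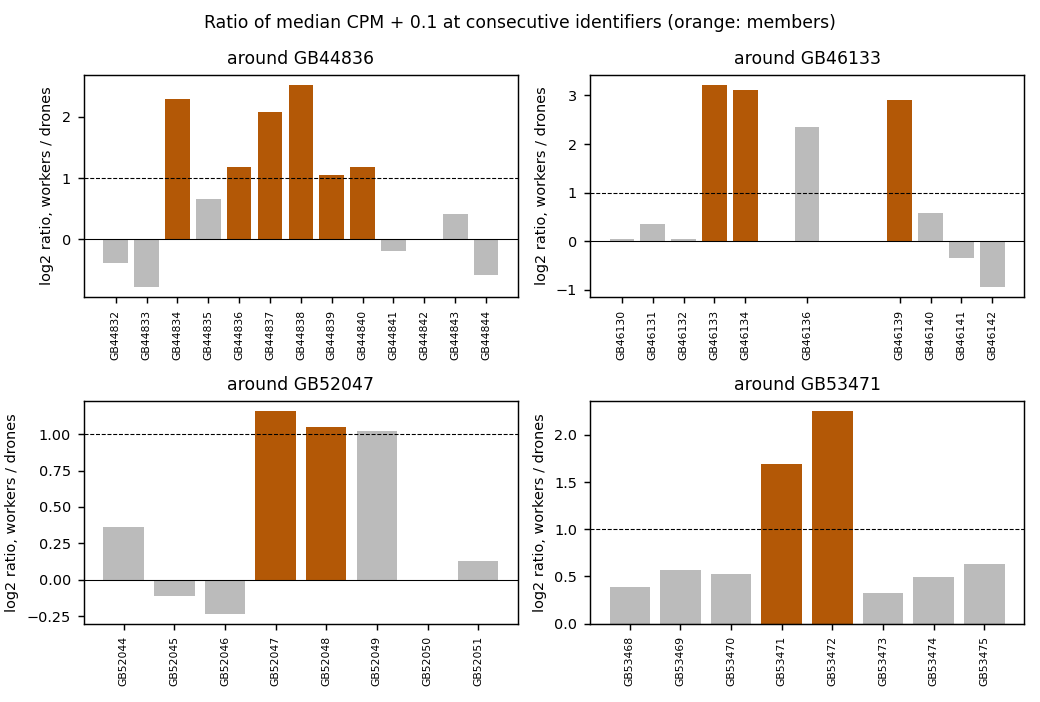
Bars give the log2 ratio of worker to drone median CPM, each with 0.1 CPM added, for identifiers in numerical order around 4 runs of members (orange). Empty positions are identifiers not listed or with nearly equal medians, grey bars are genes outside the set, and the dashed line is a 2-fold ratio. GB44836 to GB44840 stand together above it, with GB44834 apart from them across GB44835 at a ratio of 1.58.

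Members with wide spread did so together in 2 sets and a pair, found by linking members whose r over 24 workers was at least 0.9. The sets were made from these correlations, so r is a description and carries no p. The set with the widest range held GB53576, GB44549, GB48020 and GB49854 (r 0.88 to 0.99 within the set). GB53576 was at 2.90, 56.0 and 9639 CPM in the lowest, median and highest worker, against 2.01, 4.29 and 9.23 CPM in drones. Its 5 highest workers, inactive worker 5 with 9639 CPM, active worker 5 with 4700, active worker 1 with 2096, inactive worker 4 with 1160 and active worker 3 with 849, were all of colony 1, both times among them. In GB44549 the same inactive worker 5 was highest with 4035 CPM, where the worker median was 22.04 CPM, and in GB48020 with 2379 CPM, where it was 10.9 CPM.

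In drones GB44549 reached 2.78 CPM and GB48020 2.06 CPM at the highest, so no drone came near the upper workers. The lowest workers were at the drone level, with inactive worker 8 at 2.90 CPM of GB53576 and at 0 reads of GB44549 and GB48020. Within colony 1 the r between GB53576 and GB44549 was 0.99, within colony 2 it was 0.97, and without the 2 bees farthest from the median of GB53576 it was 0.98. Spearman's rho over the 24 workers was 0.98. These values describe a pair chosen by its r over the same 24 workers, within the colonies that could be examined. The highest bees were of colony 1.

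The other set held 7 members, GB54818, GB54817, GB47947, GB47990, GB51652, GB51653 and GB42792 (r 0.83 to 0.96). Among them are the neighbouring pairs GB54817 with GB54818 and GB51652 with GB51653. Active worker 8 was the highest worker in GB54818 with 58.6 CPM, in GB54817 with 20.5, in GB47947 with 63.2 and in GB51653 with 149 CPM, where the worker medians were 10.1, 2.74, 15.8 and 31.9 CPM. In drones 1 bee stood far above the rest. Active drone 1 had 197 CPM of GB54818, 35.0 of GB54817, 159 of GB47947, 34.1 of GB47990, 67.4 of GB51652 and 397 of GB51653, and was above every worker in each of these. The drone medians were 1.44, 0.185, 2.70, 0.211, 0.782 and 10.01 CPM. The pair was GB40621 and GB40624, with r = 0.94.

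**Figure D5:**
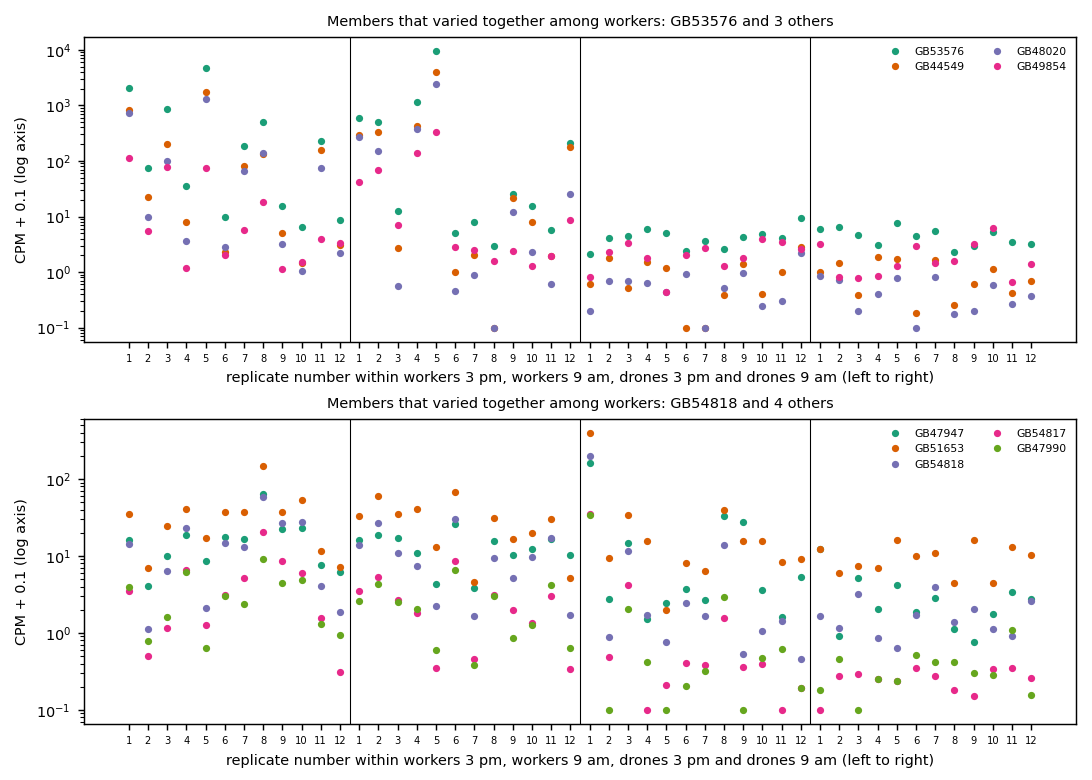
CPM + 0.1 of each bee (log axes) for the 4 members of the set led by GB53576 (upper panel) and 5 of the 7 members of the set led by GB54818 (lower panel), with active workers, inactive workers, active drones and inactive drones from left to right. In the upper panel all drones stay at or below 9.23 CPM while workers reach 9639 CPM, and in the lower panel active drone 1 is the highest bee in every gene shown.

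Activity was compared within each sex. The choice of members did not use this contrast as such. Its medians were taken over the same bees of both times, so a change with activity in 1 sex could move a ratio past the limit. The comparison is therefore not fully independent of the choice. All 156 members were among the 11167 genes tested with edgeR's quasi-likelihood test, with colony in the model and Benjamini-Hochberg adjustment over all genes. In workers 2 of 156 members (1.28%) passed, against 2.31% of all genes, and both were lower in active bees. Over all genes 1.65% passed as higher and 0.663% as lower in active workers. The median difference between active and inactive workers was 0.05 over the members and -0.01 over all genes on the log2 scale, and an unadjusted p below 0.05 was found in 18 members (11.54%), against 16.23% of all genes. In drones 8 members (5.13%) passed, against 3.95% of all genes, 6 of them higher and 2 lower in active bees, against 2.64% higher and 1.31% lower over all genes. The median difference was 0.05 over the members and -0.01 over all genes.

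GB45427 was lower in active bees of both sexes. Active workers had 2.63, 14.1 and 28.8 CPM as lowest, median and highest, against 17.8, 24.3 and 58.0 CPM in inactive workers, with some overlap. Active drones had 1.85, 4.94 and 10.57 CPM, against 10.63, 22.5 and 34.4 CPM in inactive drones, with none. Among inactive bees the worker and drone medians were thus close, at 24.3 and 22.5 CPM. Over both times they were 21.5 and 10.6 CPM, so the membership of GB45427 rests on the active bees. The log2 difference was -1.06 ± 0.28 in workers (SE, n = 12 per group, edgeR adjusted p = 0.0329) and -1.85 ± 0.30 in drones (adjusted p = 4.76e-05). In drones the call held in all 48 fits that left out 1 library, with adjusted p up to 0.000183. In workers it was lost in 9 of 48, with adjusted p up to 0.0913. By colony the active and inactive worker medians were 15.2 and 28.9 CPM in colony 1, 7.21 and 24.4 in colony 2, and 22.3 and 21.9 in colony 3, the last from 2 bees each.

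GB40926 was the other member lower in active bees of both sexes. It had 2.95, 3.96 and 6.77 CPM in active workers against 4.43, 5.96 and 11.6 CPM in inactive workers, and 0.820, 1.97 and 3.03 CPM in active drones against 1.44, 2.93 and 4.53 CPM in inactive drones. All 4 groups overlapped with their counterpart. The log2 difference was -0.67 ± 0.19 in workers (edgeR adjusted p = 0.0400) and -0.72 ± 0.20 in drones (adjusted p = 0.0230). The worker call was lost in 15 of 48 fits without 1 library, with adjusted p up to 0.119, and the drone call in 1. The difference of response between the sexes had adjusted p = 0.965 for GB40926 and 0.515 for GB45427.

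Without the bees of colony 1 the worker difference was -1.14 for GB45427 (edgeR adjusted p = 0.466) and -0.47 for GB40926 (adjusted p = 0.780). Without those of colony 2 it was -0.63 (adjusted p = 0.409) and -0.70 (adjusted p = 0.203). Without those of colony 3 the drone difference was -1.85 for GB45427 (adjusted p = 0.194) and -0.38 for GB40926 (adjusted p = 0.924), with 10 drones left. The 2 worker calls were near the limit, and the number of members called depended on single bees. It was 0 without active worker 3, 7 or 9 or inactive worker 2, 3 or 9, it was 1 without active worker 1, 2, 6 or 8 or inactive worker 7 or 8, and it was 4 without inactive worker 11.

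Of the 6 members higher in active drones, 4 belong to the set led by GB54818, and GB47946 is the identifier before GB47947. GB47947 had 1.41, 3.55 and 159 CPM in active drones, against 0.668, 2.29 and 12.2 CPM in inactive drones. GB54817 had 0, 0.293 and 35.0 CPM in active drones, against 0, 0.170 and 0.253 CPM in inactive drones. The groups overlapped, and the medians were close while the highest active drones stood apart. The log2 differences were 2.77 ± 0.57 for GB47947 (SE, n = 12 per group, edgeR adjusted p = 0.00153), 3.66 ± 0.87 for GB54817 (0.00745), 2.55 ± 0.67 for GB47946 (0.0186), 2.76 ± 0.77 for GB51652 (0.0287) and 2.95 ± 0.83 for GB47990 (0.0288).

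All 5 calls were lost without active drone 1. The differences of GB47947, GB54817, GB47946, GB51652 and GB47990 were then 1.66, 1.70, 1.34, 1.25 and 0.99, with edgeR adjusted p of 0.0777, 0.202, 0.293, 0.382 and 0.522, and 4 members in all were called. It was also 4 without active drone 8, and 0 without the drones and workers of colony 3. GB53221 was the remaining one of the 6, with 0.302, 1.77 and 6.97 CPM in active drones against 0.414, 0.960 and 1.79 CPM in inactive drones. Its log2 difference was 1.09 ± 0.31 (adjusted p = 0.0296), a call lost in 7 of 48 fits without 1 library, with adjusted p up to 0.107. Several of these genes have a drone median of only a few reads.

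The response to activity did not pass the test of a difference between workers and drones in any member. With edgeR 0 of 156 passed, against 0.26% of all genes, and DESeq2 and limma-voom also called 0. An unadjusted p below 0.05 was found in 17 members (10.9%) and in 10.1% of all genes. GB53951 had the lowest p, with a worker response 1.09 ± 0.33 above the drone response on the log2 scale (adjusted p = 0.182). Its levels were 4.88, 10.1 and 21.6 CPM in active workers against 4.40, 7.39 and 13.2 CPM in inactive workers, and 1.13, 2.89 and 5.23 CPM in active drones against 1.88, 4.08 and 8.66 CPM in inactive drones. GB49752 followed with 1.11 ± 0.34 (adjusted p = 0.190).

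Colonies were compared within each sex, again over all genes. In the 20 workers of colonies 2 and 1, 4 of 156 members (2.56%) passed edgeR's test with collection time in the model, against 0.54% of all 11114 genes. Of the 4, 2 were higher in colony 2 and 2 lower, against 0.162% higher and 0.378% lower over all genes. The difference was positive, higher in colony 2, in 66.7% of members and 47.1% of all genes, with medians of 0.11 and -0.01 on the log2 scale. An unadjusted p below 0.05 was found in 42 members (26.9%), against 8.13% of all genes. Collection times were even, with 5 bees per colony and time. These 20 bees were among the 24 workers whose median chose the members, so this comparison is not fully independent of the choice.

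GB42956 was higher in workers of colony 2, with 4.15, 12.2 and 24.9 CPM in the lowest, median and highest bee against 3.38, 4.14 and 8.65 CPM in colony 1 (log2 difference 1.496 ± 0.25, SE, n = 10 per colony, edgeR adjusted p = 0.00595). GB42363 was higher too, with 4.14, 4.87 and 7.39 CPM in colony 2 against 0.273, 1.54 and 4.36 CPM in colony 1 (1.54 ± 0.32, edgeR adjusted p = 0.0230). GB49854, of the set led by GB53576, was lower, with 1.02, 2.12 and 17.8 CPM in colony 2 against 1.09, 71.8 and 337 CPM in colony 1 (-4.47 ± 0.82, edgeR adjusted p = 0.0113). GB43728 was lower as well, with 19.5, 35.3 and 51.2 CPM against 9.17, 130 and 241 CPM (-1.79 ± 0.37, edgeR adjusted p = 0.0230). The colonies overlapped in each of the 4 genes, and GB49854 and GB43728 spread far more widely in colony 1 than in colony 2. Without active worker 5 the calls of GB42363 (adjusted p = 0.0553) and GB43728 (0.0526) were lost and 2 of 4 were left. With limma-voom those of GB49854 (adjusted p = 0.205) and GB43728 (0.130) were lost.

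In the 21 drones of colonies 3 and 1, 11 of 155 members tested (7.10%) passed, against 1.31% of all 11638 genes, 4 higher and 7 lower in colony 3, against 0.567% higher and 0.748% lower over all genes. Colony 3 gave 14 of 24 drones, so its level weighed on the drone median that chose the members, and this comparison is not independent of the choice. GB49091 was at 4.76, 11.7 and 15.4 CPM in drones of colony 3 against 0.827, 2.84 and 3.72 CPM in colony 1, without overlap (2.02 ± 0.28, n = 14 and 7, edgeR adjusted p = 0.000371). GB41260 was at 1.77, 3.18 and 6.41 CPM in colony 3 against 0.906, 1.16 and 1.51 CPM in colony 1, again without overlap (1.81 ± 0.29, edgeR adjusted p = 0.00195). Worker medians of GB41260 were 57.73 CPM in colony 3 and 49.98 CPM in colony 1.

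GB54410 was lower in drones of colony 3, at 3.67, 6.20 and 10.6 CPM against 2.79, 62.2 and 75.8 CPM in colony 1 (-2.70 ± 0.37, edgeR adjusted p = 0.000296). GB54970 was at 3.02, 8.14 and 13.0 CPM in colony 3 against 15.4, 20.1 and 73.4 CPM in colony 1, without overlap (-2.13 ± 0.30, edgeR adjusted p = 0.000371). GB40607 had 0.172, 0.481 and 1.54 CPM in colony 3 against 1.06, 2.04 and 3.204 CPM in colony 1 (-1.93 ± 0.33, edgeR adjusted p = 0.00371). The others called were GB42210 and GB49843, which were higher, and GB51830, GB40549, GB55226 and GB46994, which were lower. Of these, GB46994 lost its call in 8 of 21 fits without 1 library and GB55226 in 3. Without inactive drone 3 the count was 7, and collection time, at 8 and 2 bees at 3 pm and 6 and 5 at 9 am in colonies 3 and 1, was uneven but in the model.

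GB40609, identifier 2 numbers on from GB40607, shows how far a ratio can depend on colony. Its worker medians were 126, 168 and 21.5 CPM in colonies 1, 2 and 3, and its drone medians 5.77, 2.81 and 4.53 CPM. The ratio within a colony was thus 21.9, 59.6 and 4.75. All 4 workers of colony 3 (9.75 to 31.9 CPM) were above the drone median of every colony. They overlapped with single drones, of which the highest, an active drone, had 25.5 CPM. The ratio within colony 2 rests on 3 drones.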

How the data were processed

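Mushroom body RNA of 48 bees was analysed, 12 in each of 4 groups taken from the labels, which also give colony (3) and sequencing pool (7). The deposited files hold raw read counts per gene, 1 file per bee. The submitters' processing notes name edgeR 3.4.2, HTSeq 0.5.4, SAMtools, TopHat2 2.0.10, Trimmomatic 0.30 and CASAVA 1.8.2 without their roles. How strand and overlapping genes were handled is not given in the sources used here. Reads given to no gene (5 summary entries per file) entered neither library sizes nor tests. They included reads outside genes (24.5 to 31.8% of entries), ambiguous reads (0.707 to 1.07%) and reads with several alignments (2.46 to 3.23%). No pair of libraries within a group agreed within sampling noise.

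CPM is a count divided by the library's total over gene entries. Members were found by the rule stated at the start of the report. The members, lists and tests were chosen with earlier results of these data known. The definitions of gaps and of sets that varied together, and the correlations shown, were chosen after the values were seen. Genes passing filterByExpr were fitted with TMM scaling and edgeR 4.0.16 (quasi-likelihood) in R 4.3.3, with the 4 groups and colony for activity, and with colony and time for colonies. Tests are two-sided with Benjamini-Hochberg adjustment over all genes tested, threshold 0.05. The SE is the log2 difference divided by the root of F. The script was tested on simulated data in which some genes were changed in active workers. It recovered 56% of changes of 0.5 on the log2 scale, 80% of changes of 1 and 96% of changes of 2. Of its calls 6.43% were false. Only the worker comparison was assessed in this way. P-values measure the spread between single bees. DESeq2 1.42.0, limma-voom (limma 3.58.1), other scalings and filters, added pool terms, a replicate block, left-out colonies and left-out bees were tried as alternatives.

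Members named by rule were the 10 with the largest ratio, the 10 with the highest worker median, those of the 4 longest runs, up to 5 per direction and comparison by lowest p, those nearest the limits, and the most even and most variable. Members named for gaps, sets or colony medians, or to complete a list of calls, were picked after their values were seen.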

Additional observations from a re-analysis of the deposited data

How the results depend on the processing

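The rule gave 171 members with TMM-scaled CPM, 154 of them among the 156, 207 without colony 3 (130 shared) and 140 with means in place of medians (110 shared). A total of 71 members were chosen under each of 7 alternatives, namely TMM scaling, means, 3 pm bees, 9 am bees and each colony left out; other CPM totals and level limits were not among them. The counts of members called moved as follows. For activity in workers, 2 became 5 with DESeq2, 4 with limma-voom, 1 without a filter, 1 with colony left out of the model, 0 without colony 1 and 0 without colony 2. For activity in drones, 8 became 13 with DESeq2, 2 with limma-voom, 4 with pool terms and 0 without colony 3. For colony 2 minus colony 1 in workers, 4 became 8 with DESeq2, 2 with limma-voom, 1 among 3 pm bees and 0 among 9 am bees. For colony 3 minus colony 1 in drones, 11 became 3 among 3 pm bees and 4 among 9 am bees. The cause of these moves was not tested, apart from the fewer bees in fits on part of them. Leaving out each bee in turn gave 0 to 4 members for activity in workers, 4 to 12 for activity in drones, 0 for the response difference, 2 to 6 for colonies in workers, 7 to 13 for colonies in drones, and a median sex difference of 1.14 to 1.23. With the replicate number as a block, activity called 4 members in workers and 5 in drones. The number comes from the sample titles, and whether it pairs bees was not settled. Deviations from group means had r of -0.34 to 0.50 (median 0.04) between same-numbered bees, over 0.1 in 25 of 72 pairs. Between bees of other numbers r was -0.52 to 0.54 (median 0), over 0.1 in 186 of 792 pairs. Colony was not taken out of these deviations, and the worker numbers follow colony. None of 27 gene changes followed through the alternatives (each call and the 2 lowest p of the response difference) reversed its direction. Depth limits the members low in drones, where 15 had a median under 10 reads.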
